A study of Mus musculus with 12 samples.

Results

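The 10 genes described here encode the enzymes and transporters that make, store, recapture and break down the monoamines serotonin, dopamine and noradrenaline. They were chosen by name: Ddc, Tph1, Tph2, Th and Dbh for synthesis, Slc18a1, Slc18a2 and Slc6a4 for transport, and Maoa and Maob for breakdown. All 10 were found among the 30399 genes of the table, and all 10 passed the filter on low values. The study generated lung cancer models in mice by CRISPR/Cas9 mutagenesis without viral vectors and sequenced polyadenylated RNA from 5 normal lungs and 7 tumors. The labels name the tissue of each sample and give no strain, age, sex, treatment, targeted gene or time after mutagenesis for either group. The 7 tumor titles carry 4 distinct numbers: tumor 1 has 153, tumor 2 has 156, tumors 3 and 4 share 159, and tumors 5 to 7 share 201. The titles of tumors 1 and 7 also hold a word for trachea, and those of tumors 3 to 6 a word for lung. The labels do not say whether a shared number marks 1 mouse, so every p-value below measures only the spread between these samples.

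Serotonin is made from tryptophan, which tryptophan hydroxylase (Tph1 or Tph2) converts to 5-hydroxytryptophan. Dopamine is made from tyrosine, which tyrosine hydroxylase (Th) converts to L-DOPA. Both intermediates lose their carboxyl group to the same enzyme, aromatic L-amino acid decarboxylase (Ddc), and dopamine becomes noradrenaline through dopamine beta-hydroxylase (Dbh). Vesicular transporters (Slc18a1 and Slc18a2) load the amines into secretory vesicles, the plasma membrane transporter Slc6a4 takes serotonin back into cells, and the mitochondrial monoamine oxidases Maoa and Maob degrade the amines. In the normal airway, pulmonary neuroendocrine cells store serotonin and express Ddc, and the lung endothelium clears serotonin and noradrenaline from the blood.

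The proximal promoters are shown first because 4 of the 5 synthesis genes and Slc18a2 were higher in the tumors, while Slc6a4 and Maoa were lower. RefSeq windows on GRCm38.p6, each 300 bases long (250 before and 50 after the start site), matched 8 of the 10 genes by symbol, in 10 windows. Slc18a1 and Maob had none. Capitals mark matches to any of 4 motifs, searched on both strands, so that a match on the reverse strand appears as its complement. The cyclic AMP response element is spelled TGACGTCA. The GC box is spelled GGGCGG. The E-box is spelled CAGCTG. Only this spelling of the E-box was searched, so its other spellings are not marked. The TATA box is spelled TATAAA. In Slc18a2 capitals also mark 1 arm of the element bound by REST, described with Tph2. These motifs were chosen after the windows had been read, and the marked matches do not overlap. The sequences run 5′ to 3′ along the gene's strand and end at the base before the start site, except for Slc18a2, which runs 4 bases past it. Th lies on the minus strand at chr7:142899996-142900245, Slc18a2 on the plus strand at chr19:59260628-59260881, Slc6a4 on the plus strand at chr11:76998347-76998596 and Maoa on the plus strand at chrX:16619448-16619697. Ddc has a pair of start sites on the minus strand, with the upstream one at chr11:11898145-11898394 and the downstream one at chr11:11890409-11890658.
Th: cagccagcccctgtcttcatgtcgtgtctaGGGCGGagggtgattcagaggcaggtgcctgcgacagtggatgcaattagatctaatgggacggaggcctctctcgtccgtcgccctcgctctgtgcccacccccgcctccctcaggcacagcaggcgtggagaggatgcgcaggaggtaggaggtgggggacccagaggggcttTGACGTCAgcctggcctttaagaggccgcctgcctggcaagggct
Slc18a2: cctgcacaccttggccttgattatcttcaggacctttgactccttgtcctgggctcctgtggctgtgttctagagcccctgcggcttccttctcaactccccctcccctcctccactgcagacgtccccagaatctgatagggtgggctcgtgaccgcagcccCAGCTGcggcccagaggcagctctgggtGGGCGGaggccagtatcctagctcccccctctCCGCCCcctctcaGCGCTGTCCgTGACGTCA
Ddc, upstream start: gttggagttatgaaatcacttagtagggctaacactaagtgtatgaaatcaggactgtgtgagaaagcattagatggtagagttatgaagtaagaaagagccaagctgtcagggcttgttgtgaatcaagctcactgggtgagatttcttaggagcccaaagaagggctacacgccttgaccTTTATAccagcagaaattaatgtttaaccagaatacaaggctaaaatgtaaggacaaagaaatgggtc
Ddc, downstream start: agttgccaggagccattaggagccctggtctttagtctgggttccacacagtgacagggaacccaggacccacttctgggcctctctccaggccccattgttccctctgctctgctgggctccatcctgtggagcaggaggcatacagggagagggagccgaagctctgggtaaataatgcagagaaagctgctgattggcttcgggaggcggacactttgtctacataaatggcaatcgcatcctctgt
Slc6a4: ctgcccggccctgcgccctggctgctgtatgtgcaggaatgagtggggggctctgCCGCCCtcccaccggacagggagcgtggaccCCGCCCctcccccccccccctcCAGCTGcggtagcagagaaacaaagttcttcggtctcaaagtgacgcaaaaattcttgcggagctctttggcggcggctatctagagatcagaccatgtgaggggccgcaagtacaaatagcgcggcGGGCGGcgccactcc
Maoa: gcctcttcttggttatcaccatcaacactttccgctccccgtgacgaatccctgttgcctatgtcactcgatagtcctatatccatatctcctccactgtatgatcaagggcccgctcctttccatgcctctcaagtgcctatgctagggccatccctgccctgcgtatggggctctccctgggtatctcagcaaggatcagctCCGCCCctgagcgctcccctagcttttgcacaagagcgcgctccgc

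The cyclic AMP response element, the palindrome bound by CREB family factors, was found in the windows of Th, from position -45 to -38 before the start site, and Slc18a2, from -4 to 4. Of all 32851 RefSeq windows of this length, 1.79% hold it. The GC box was found in the windows of Th, Slc18a2, Slc6a4, Maoa and the downstream Tph1 start, against 35.7% of all windows. The E-box in the spelling searched was found in those of Slc6a4, Slc18a2 and Tph2, against 16.3%. The TATA box was found in those of Tph2 and the upstream Ddc start, against 13.6%. Tph1, like Ddc, has a pair of start sites. The downstream Ddc window, the upstream Tph1 window and the Dbh window held no match to these 4 motifs as spelled above. Tph2 also carried, at positions 9 to 34 after its start site on the minus strand at chr10:115184989-115185014, letters of both arms of the element bound by REST, the repressor of neuronal genes. The capitals mark the left arm, spelled TTCAGCACC, and, 8 bases on, the right arm, spelled GGACAGCGC.
Tph2, REST element arms: TTCAGCACCagggttctGGACAGCGC
The left arm occurred in 0.371% of all windows, the right arm in 0.405%, and both on 1 strand in 4 windows (0.0122%). The right arm alone was also in the Slc18a2 window, on the reverse strand from -14 to -6. A match of letters is a description of the sequence, and binding was not measured.

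The synthesis enzymes for dopamine and serotonin were higher in every tumor than in any normal lung. All levels below are read counts divided by the authors' size factor for each sample, called normalized counts. Changes are differences of log2(normalized count + 1) between tumor and normal lung from limma, which understate the change of genes near 0. A gene was called when its Benjamini-Hochberg adjusted p over the 23674 genes tested was below 0.05. Of the 10 genes, 5 were called higher and 3 lower, where 31.4% of all genes tested were called higher and 30.1% lower (61.5% in either direction). The tumors lay wholly above the normal lungs for the same 5 genes and wholly below them for the same 3, against 20.1% and 18.4% of all genes tested. Since most genes differed between tumor and normal lung, a call by itself does not set a gene apart. In bulk tissue, fewer cells of a type and less RNA per cell cannot be told apart, and this holds for every value below.

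Ddc, the decarboxylase common to both pathways, was the most abundant of the 10 in the tumors. The normal lungs had 34.8, 49.5, 69.4, 64.9 and 86.2 normalized counts of Ddc. The tumors had 6587 at the lowest, 17232 at the median and 29157 at the highest. The groups did not overlap, and the lowest tumor (tumor 1) stood far above the highest normal lung. The mean rose 252-fold, from 61.0 ± 19.6 (SD, n = 5) to 15345 ± 8545 (SD, n = 7). The log2 change of Ddc was 7.80 (SE 0.38, limma adjusted p = 2.64e-09). Tumors 1, 2 and 7 had the lowest Ddc levels (6587, 7470.5 and 7509), and tumors 3 and 4, which share a title number, had the highest.

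Th, which makes L-DOPA, had no read in any of the 5 normal lungs. The tumors had 27.9 normalized counts of Th at the lowest (tumor 1), 244 at the median and 887 at the highest (tumor 5), from 2459 reads in all. The 7 tumors all stood above 0, and the highest and lowest differed 31.9-fold among themselves. The tumor mean of 285 ± 284 (SD, n = 7) was at least 58.9-fold higher than the floor of 4.85 normalized counts, the value of 3 reads in the shallowest normal lung. Without tumor 5 the tumor mean was 185 and the bound 38.2-fold. The log2 change of Th was 7.56 (SE 0.65, limma adjusted p = 3.93e-07). Because the normal lungs had no read, that value depends on the 1 added before the logarithm and was 10.87 with 0.1 added. Tumors 5, 6 and 7, which share a title number, had 887, 291 and 145 normalized counts of Th.

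Both tryptophan hydroxylases were at or near 0 in normal lung and were detected in every tumor. Tph1, the isoform known from peripheral tissues, had 1 read in normal lung 1 (1.29 normalized counts) and none in the other 4. The tumors had 7.15 normalized counts of Tph1 at the lowest, 18.8 at the median and 47.4 at the highest. Tumor 7 was the highest and tumor 2 the lowest, and the groups did not overlap. Pooled over libraries, the 210 tumor reads of Tph1 against that 1 read gave a ratio of 92.9, with a 95% counting interval from 16.5 to 3687. The log2 change of Tph1 was 4.03 (SE 0.48, limma adjusted p = 9.14e-06). Tph2, the isoform known from serotonergic neurons, had 1 read in normal lung 5 (1.15 normalized counts) and none in the other 4. The tumors had 2.69 normalized counts of Tph2 at the lowest, 8.09 at the median and 17.3 at the highest. The groups did not overlap, although tumor 4, the lowest, rested on 3 reads. Its value lay under the 3.23 to 4.85 normalized counts that 3 reads were worth in the normal lungs. The pooled ratio of Tph2 was 42.5 (95% counting interval 7.44 to 1695), and its log2 change was 3.06 (SE 0.44, limma adjusted p = 4.37e-05). These intervals cover counting error only.

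Dbh, which turns dopamine into noradrenaline, stayed near 0 in both groups. The normal lungs had 2.58, 2.15, 1.62, 2.82 and 0 normalized counts of Dbh, from 7 reads in all. The tumors had 0 at the lowest, 1.62 at the median and 7.04 at the highest (tumor 7), from 21 reads. The groups overlapped, and 2 tumors had no read. The log2 change of Dbh was -0.07 with a 95% interval from -1.25 to 1.11 (limma adjusted p = 0.914). At this depth no difference was detected, and the sign of the change varied with the processing.

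**Figure D1:**
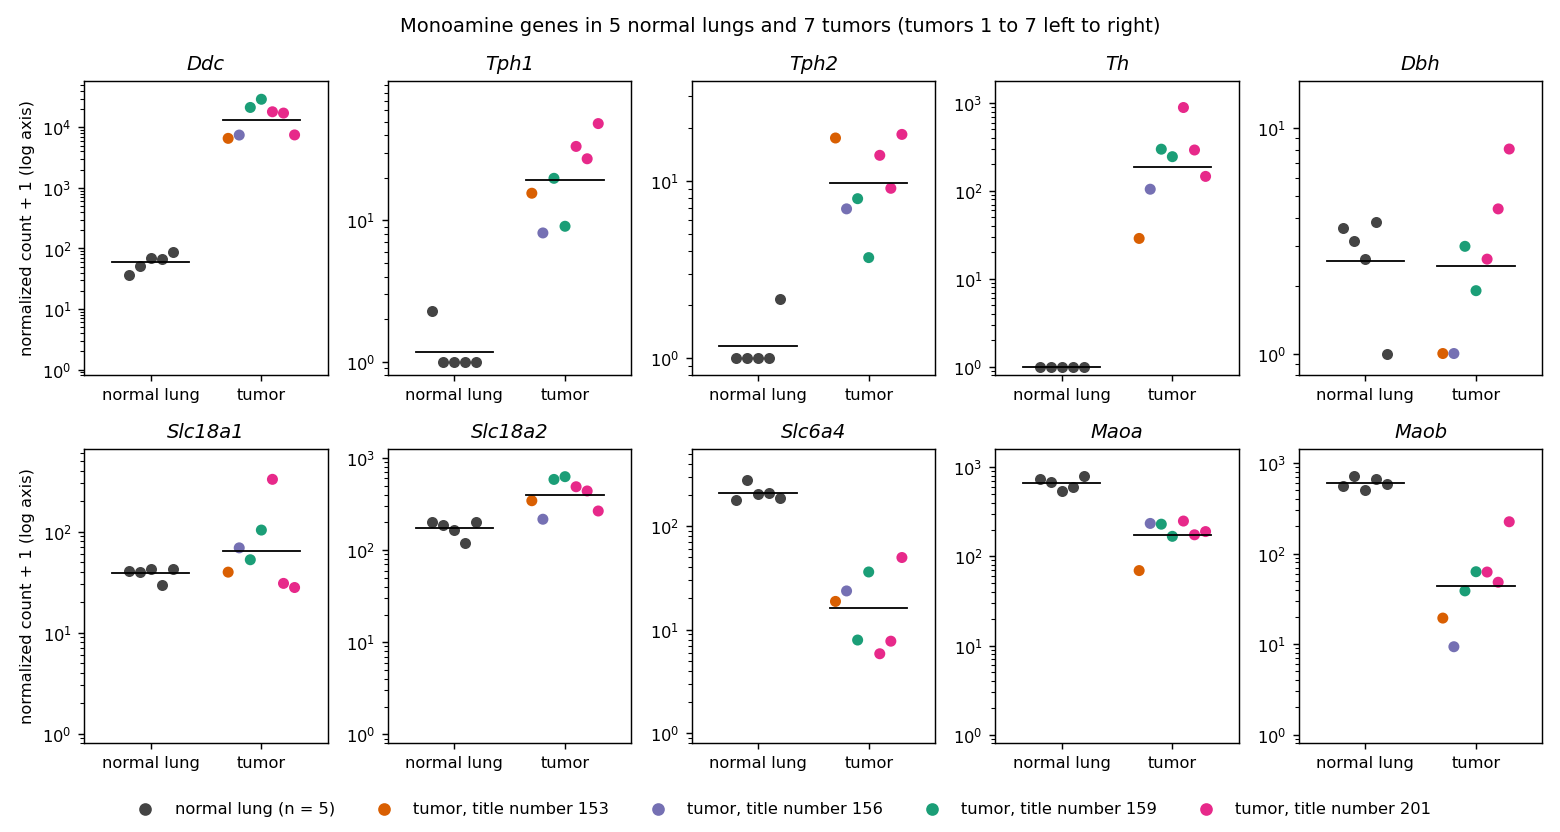
Normalized count + 1 (log axis) of each of the 10 genes in the 5 normal lungs and 7 tumors, 1 panel per gene; points are samples, tumors are coloured by the number in their title, and horizontal lines are geometric means. Ddc, Th, Tph1, Tph2 and Slc18a2 lie higher in all 7 tumors than in all 5 normal lungs, Slc6a4, Maoa and Maob lie lower, and Dbh and Slc18a1 overlap.

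The vesicular transporters differed from each other. Slc18a2 (VMAT2), which loads amines in neurons and many other cells, had 199.9, 185, 165, 118 and 203 normalized counts in the normal lungs. The tumors had 216 at the lowest, 438 at the median and 627 at the highest. The groups did not overlap, but tumor 2 at 216 lay close to normal lung 5 at 203. The mean rose 2.43-fold, from 174 ± 34.7 (SD, n = 5) to 423 ± 156 (SD, n = 7), with a log2 change of 1.21 (SE 0.28, limma adjusted p = 0.00202). Slc18a1 (VMAT1), the vesicular transporter known from endocrine cells, had 40.0, 38.7, 42.0, 28.2 and 41.4 normalized counts in the normal lungs. The tumors had 26.9 at the lowest (tumor 7), 51.6 at the median and 328 at the highest (tumor 5). Tumors 4 and 5 stood well above every normal lung, and tumors 2 (67.9) and 3 (51.6) also lay above the highest. Tumors 1, 6 and 7 lay within or below the normal range. The log2 change of Slc18a1 was 0.72 (95% interval -0.42 to 1.85, limma adjusted p = 0.256), and 0.32 without tumor 5. DESeq2 on the recovered reads of 11 samples called Slc18a1 higher (log2 change 1.40, adjusted p = 0.0423, where DESeq2 called 58.6% of all genes), whereas edgeR on the same reads did not (1.44, adjusted p = 0.0674, where edgeR called 55.8%).

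Slc6a4, the serotonin transporter of the plasma membrane, was 10.3-fold lower in the tumors. The normal lungs had 177, 276, 203, 207 and 185 normalized counts of Slc6a4. The tumors had 4.85 at the lowest (tumor 5), 17.7 at the median and 48.7 at the highest (tumor 7). Every tumor lay below every normal lung. The mean fell from 209.8 ± 39.3 (SD, n = 5) to 20.4 ± 16.5 (SD, n = 7), with a log2 change of -3.69 (SE 0.52, limma adjusted p = 3.99e-05). Slc6a4 is known from lung endothelium and platelets, and marker genes of both moved with it. All 9 endothelial markers were called lower, and their summed level was 79475 to 92656 normalized counts in the normal lungs and 1094 to 6584 in the tumors. All 8 platelet and megakaryocyte markers were also called lower, with sums of 2087 to 7887 in the normal lungs and 239.9 to 830.0 in the tumors. Tumor 7 was the highest tumor for both sums as it was for Slc6a4. The part of these cell types in the Slc6a4 result was not tested.

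Both monoamine oxidases were lower in every tumor than in any normal lung. Maoa, which prefers serotonin and noradrenaline, had 734, 686, 541, 597 and 802 normalized counts in the normal lungs. The tumors had 68.4 at the lowest (tumor 1), 189 at the median and 248 at the highest. Tumor 1 stood apart below the other 6 tumors, which lay between 167 and 248. The mean of Maoa was 3.59-fold lower, at 672 ± 105 (SD, n = 5) in normal lung and 187.01 ± 61.0 (SD, n = 7) in tumor, with a log2 change of -1.92 (SE 0.29, limma adjusted p = 6.39e-05). Maob, which prefers phenylethylamine, had 558, 715, 506, 657 and 582 normalized counts in the normal lungs. The tumors had 8.34 at the lowest (tumor 2), 47.2 at the median and 224 at the highest (tumor 7). The groups did not overlap, and the highest and lowest tumors lay further apart for Maob than for Maoa. The mean of Maob was 9.22-fold lower, at 604 ± 82.8 (SD, n = 5) in normal lung and 65.5 ± 72.6 (SD, n = 7) in tumor. The log2 change of Maob was -3.78 (SE 0.59, limma adjusted p = 9.34e-05), and -4.18 without tumor 7.

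The ratio of Maoa to Maob was higher in the tumors, in a test that depended on single samples. To compare genes, normalized counts were divided by the length of the merged exons in kilobases. In normal lung Maoa made up 37.8 to 48.0% of the sum of both oxidases per kilobase. In the tumors its share ran from 36.1% in tumor 7 to 94.9% in tumor 2, and it was above every normal lung in the 6 tumors other than tumor 7. The log2 ratio of Maoa to Maob was -0.43 ± 0.27 (SD, n = 5) in normal lung and 1.38 ± 1.38 (SD, n = 7) in tumor. The difference of 1.80 had p = 0.0139 in a two-sided exact permutation test over all 792 splits, or 0.0417 adjusted over the 3 gene pairs compared. The adjusted p of the Maoa to Maob ratio rose above the threshold, to between 0.0584 and 0.109, when any 1 sample other than tumor 7 was left out, and was 0.00649 without tumor 7.

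The vesicular transporter ratio overlapped between the groups. Slc18a1 made up 16.2 to 19.8% of the vesicular transporter sum per kilobase in normal lung and 6.15 to 39.4% in tumor, the highest being tumor 5. The log2 ratio of Slc18a1 to Slc18a2 differed by -0.51 between the groups (exact permutation p = 0.347, adjusted 0.521). The Slc18a1 to Slc18a2 difference was -0.84 without tumor 5 (exact permutation, adjusted p = 0.0617) and -0.32 without tumor 6. For Tph1 against Tph2 the 1 read of each in normal lung gave no ratio to compare, and the test carries no information there (difference 0.04, exact permutation p = 0.913, equal after adjustment). Among the tumors Tph1 per kilobase was 0.413 to 1.52 times Tph2, with a median of 1.27.

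**Figure D2:**
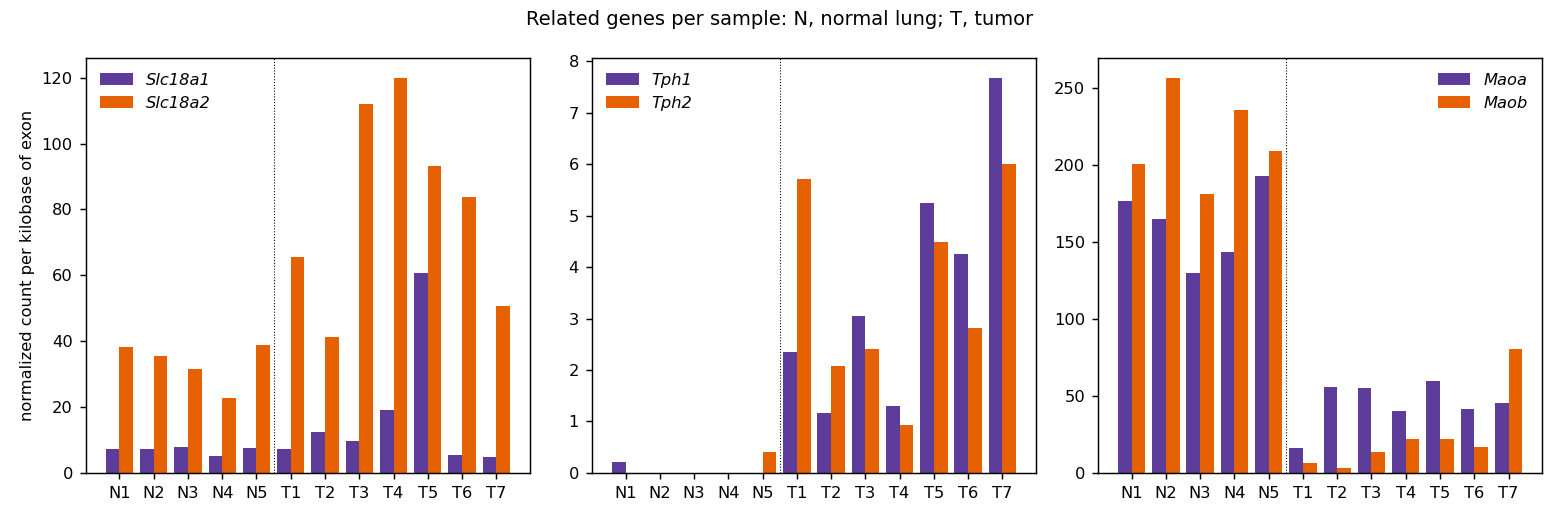
Normalized count per kilobase of merged exon for the paralog pairs of vesicular transporters, tryptophan hydroxylases and monoamine oxidases, as bars for each normal lung (N1 to N5) and each tumor (T1 to T7). Maob exceeds Maoa in every normal lung, and Maoa exceeds Maob in the 6 tumors T1 to T6 but not in T7.

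Levels per kilobase placed Ddc far above the hydroxylases that feed it. The mean level per kilobase in the tumors was 3440 for Ddc, 121 for Th, 80.9 for Slc18a2, 44.9 for Maoa, 23.5 for Maob and 17.1 for Slc18a1. It was 4.50 for Slc6a4, 3.58 for Tph1, 3.49 for Tph2 and 0.791 for Dbh. In that order Ddc stood above Th by more than the spread, and the ranges of mean ± SD overlapped for every other pair of neighbours. Compared within each tumor, Tph2 was still above Dbh every time, both on few reads. The other overlapping pairs changed order between tumors. In normal lung the order was another one, led by Maob at 216 and Maoa at 161 per kilobase, then Slc6a4 at 46.3, Slc18a2 at 33.4, Ddc at 13.7 and Slc18a1 at 7.05. Among these 6 the ranges of mean ± SD overlapped for Slc6a4 and Slc18a2 and not for the other neighbours. Within each normal lung Slc6a4 was above Slc18a2. Within single tumors Ddc per kilobase was 10.8 to 125 times Th (median 38.0) and 219 to 4991 times Tph1 (median 907). Th was above Tph1 in every tumor, by 4.99-fold in tumor 1 to 78.9-fold at the highest (median 37.9). RNA levels of enzymes do not measure their activity, and no amine was measured.

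The 7 tumors did not share 1 order across these genes. Tumor 1 was the lowest for Ddc, Th and Maoa, and tumor 2 was the lowest for Tph1, Slc18a2 and Maob. Tumor 5 was the highest for Th, Slc18a1 and Maoa and the lowest for Slc6a4. Tumor 4 was the highest for Ddc and Slc18a2. Tumor 7 was the highest for Tph1, Tph2, Dbh, Slc6a4 and Maob and the lowest for Slc18a1. On the log2 scale the SD among tumors was 0.86 for Ddc, 1.54 for Th, 1.44 for Maob, 1.24 for Slc18a1, 1.20 for Slc6a4, 0.63 for Maoa and 0.58 for Slc18a2. Genes within 0.5 log2 units of the same tumor mean had a median SD of 0.50 at the level of Ddc and 0.58 at the level of Th. The SD of Ddc was above that of 91.5% of such genes and that of Th above 90.7%, while for the other 8 genes this share ran from 38.8% (Tph2) to 78.5% (Maob), as a description of these libraries.

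**Figure D3:**
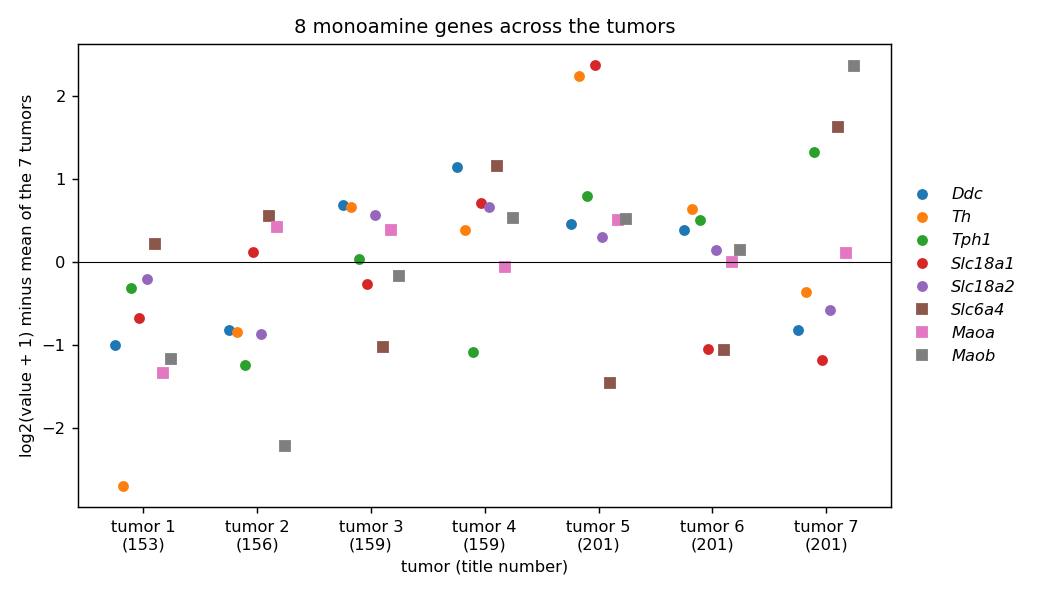
For each of tumors 1 to 7, log2(normalized count + 1) of 8 of the genes minus the mean of that gene over the 7 tumors; circles are Ddc, Th, Tph1, Slc18a1 and Slc18a2, and squares are Slc6a4, Maoa and Maob. Th, Slc18a1 and Maob spread most, and in tumor 7 Maob and Slc6a4 lie above their tumor means while Slc18a1 lies below.

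Marker genes of other cells that handle monoamines were read in the same libraries. All 8 neuroendocrine cell markers were called higher, and their sum rose from a range of 116.1 to 171 normalized counts in normal lung to 27500 to 107144 in the tumors. All 8 lung epithelial markers were called lower, with sums of 284817 to 513899 in normal lung and 267 to 3060 in the tumors. Mast cells express Tph1, Slc18a2 and the histamine enzyme Hdc. Of 9 mast cell markers 2 were called lower and 7 were not called, with sums of 3224 to 4375 in normal lung and 1844 to 5061 in the tumors, most of it from Kit. Without Kit, a choice made after the values were seen, the other 8 summed to 153 to 302 in normal lung, 0.991 to 55.7 in tumors 1 to 6 and 1646 in tumor 7. Tumor 7, the highest for Tph1 and Maob, thus also had the highest level of these markers. Without tumor 7 the same numbers of genes, 5 higher and 3 lower, were called. The part of mast cells in the results was not tested.

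Of the 6 markers of sympathetic neurons and chromaffin cells, which use Th and Dbh together, 4 were called higher and 1 lower, and 1 was too low to test. Their sum ran from 361 to 554 normalized counts in normal lung, nearly all of it Gata3, and from 333.6 to 4046 in the tumors. Gata3, a transcription factor and the 1 called lower, fell from 437 ± 69.2 (SD, n = 5) to 16.4 ± 36.5 (SD, n = 7), a log2 change of -6.72. Without Gata3, a choice made after the values were seen, the other 5 summed to 7.05 to 27.1 in normal lung and 333.0 to 4046 in the tumors. Phox2a, a transcription factor of noradrenergic neurons, the intermediate filament gene Prph, Isl1 and Npy were the 4 called higher. In the tumors Phox2a ran from 3.57 to 2215, Prph from 52.4 to 1574 and Isl1 from 10.1 to 440. Phox2a was low in tumors 1 (29.8) and 2 (3.57). Isl1 and Npy overlapped between the groups. Isl1 was 12.9 in normal lung 3 and 10.1 in tumor 1, and Npy was 6.46 in normal lung 3 and 3.17 in tumor 1. Hand2 was too low to test in these samples, with at most 2.58 in normal lung and 6.404 in tumor. Cardiac muscle markers summed to 374 to 4280 in normal lung, 262 to 2426 in tumors 1 to 6 and 37255 in tumor 7. Thyroid markers summed to 159 to 258 in normal lung, 71.5 to 171 in tumors 1 to 6 and 486 in tumor 7. The part of these cell types in the results of the 10 genes was not tested.

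Beyond the 10 genes, 62 others of monoamine biology were examined and 59 were tested, of which 14 were called higher and 28 lower. Their median log2 change was -0.81, against 0.96 over the 10 genes and 0.04 over all genes tested. Among the 34 enzymes and transporters 4 were called higher and 21 lower, and among the 25 receptors tested 10 were called higher and 7 lower. Over all genes tested 31.4% were called higher and 30.1% lower, and the counts by role below stand beside the same shares. Of these 59 genes, 8 lost their call under at least 1 alternative: Slc16a10, Slc22a3, Slc47a1, Sult1a1, Htr4, Adra1d, Adra2c and Adrb3.

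The cofactor genes did not move as 1 group: of 8, 1 was called higher and 5 lower. Gch1, the first enzyme of tetrahydrobiopterin synthesis, rose from 552 ± 105 (SD, n = 5) to 1730.0 ± 954 normalized counts (SD, n = 7), a log2 change of 1.49 (SE 0.33, limma adjusted p = 0.00163). Gchfr, which encodes the feedback regulator of Gch1, fell by 2.69 on the log2 scale. Of the later enzymes of the same synthesis, Pts fell by 1.72 and Spr fell by 2.16. Cyb561, which supplies the reducing equivalents for Dbh in vesicles, fell by 1.21. Tetrahydrobiopterin is the cofactor of Th, Tph1 and Tph2.

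Of the 5 other synthesis enzymes, 2 were called higher and 2 lower. Hdc, which makes histamine, fell from 2373 ± 376 (SD, n = 5) to 136 ± 157 normalized counts (SD, n = 7), a log2 change of -4.63 (SE 0.51, limma adjusted p = 3.99e-06). Pnmt, which turns noradrenaline into adrenaline, fell by 1.79 on the log2 scale, with means of 14.1 in normal lung and 3.73 in tumor. Asmt, the last enzyme of melatonin synthesis, rose by 2.26. Among 6 genes of precursor uptake and competing tryptophan breakdown, 5 were called lower and 1 was not called. The 5 included the tryptophan dioxygenases Ido1 (log2 change -4.78), Ido2 (-2.15) and Tdo2 (-1.88).

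Of the 7 other amine transporters, 1 was called higher and 3 lower. Of those 3, Slc47a1 lost its call under 8 alternatives (edgeR log2 change -0.56, adjusted p = 0.640) and Slc22a3 under edgeR (adjusted p = 0.0698). The fit without tumor 3 is counted again in the 8. Slc29a4, a plasma membrane monoamine transporter of low affinity, had 28.0 to 44.8 normalized counts in the normal lungs and 655 to 4167 in the tumors. The mean of Slc29a4 rose 54.6-fold, with a log2 change of 5.53 (SE 0.38, limma adjusted p = 4.40e-08). Slc6a2, the noradrenaline transporter, fell from 1823 ± 643 (SD, n = 5) to 33.4 ± 19.2 normalized counts (SD, n = 7), a log2 change of -5.83 (SE 0.35, limma adjusted p = 1.39e-08). The fall of Slc6a2 came beside that of the endothelial markers given above, and the part of those cells in it was not tested.

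Of the 8 other breakdown enzymes, 6 were called lower and 2 were not called. Aldh2, which oxidizes the aldehydes that monoamine oxidases produce, fell from 6857 ± 825 (SD, n = 5) to 319 ± 383 normalized counts (SD, n = 7), a log2 change of -5.09 (SE 0.59, limma adjusted p = 7.01e-06). Aldh3a2 fell by 1.96 on the log2 scale. Inmt, an indolethylamine N-methyltransferase abundant in lung, had a log2 change of -9.12 (-8.39 without tumor 3), and Hnmt, which methylates histamine, fell by 5.67.

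Of the 11 serotonin receptor genes tested, 6 were called higher and 2 lower. Htr4, 1 of the 6, lost its call under 10 alternatives (limma adjusted p from 0.0553 to 0.119), in which the fit without tumor 3 is counted again. Htr3a, a subunit of the serotonin-gated ion channel, had no read in normal lung and 15.3 to 104 normalized counts in the tumors, a mean at least 9.29-fold higher than the floor per library. Htr5a also had no read in normal lung and had 2.38 to 183 in the tumors, a mean at least 10.6-fold higher. Without tumor 5 the bound of Htr5a was 6.03-fold, and tumor 2 at 2.38 lay under the floor. Htr6 rose from 2.90 ± 2.29 (SD, n = 5) to 93.7 ± 60.7 normalized counts (SD, n = 7), and Htr2c fell by 4.997 on the log2 scale. Of the 5 dopamine and trace amine receptor genes tested, 3 were called higher and 2 were not called. Drd2, the inhibitory receptor that also serves as an autoreceptor on dopamine neurons, rose from 2.45 ± 2.68 (SD, n = 5) to 463 ± 359.9 normalized counts (SD, n = 7), with 186 in the lowest tumor and 1239 in the highest. Its log2 change was 7.22 (SE 0.58, limma adjusted p = 2.25e-07). Of the 9 adrenergic receptor genes, 1 was called higher and 5 lower. Adrb1, whose log2 change was -4.77 (-4.15 without tumor 2), fell from 2539 ± 56.4 (SD, n = 5) to 137 ± 84.7 normalized counts (SD, n = 7), and Adra1a fell by 5.01 on the log2 scale.

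**Figure D4:**
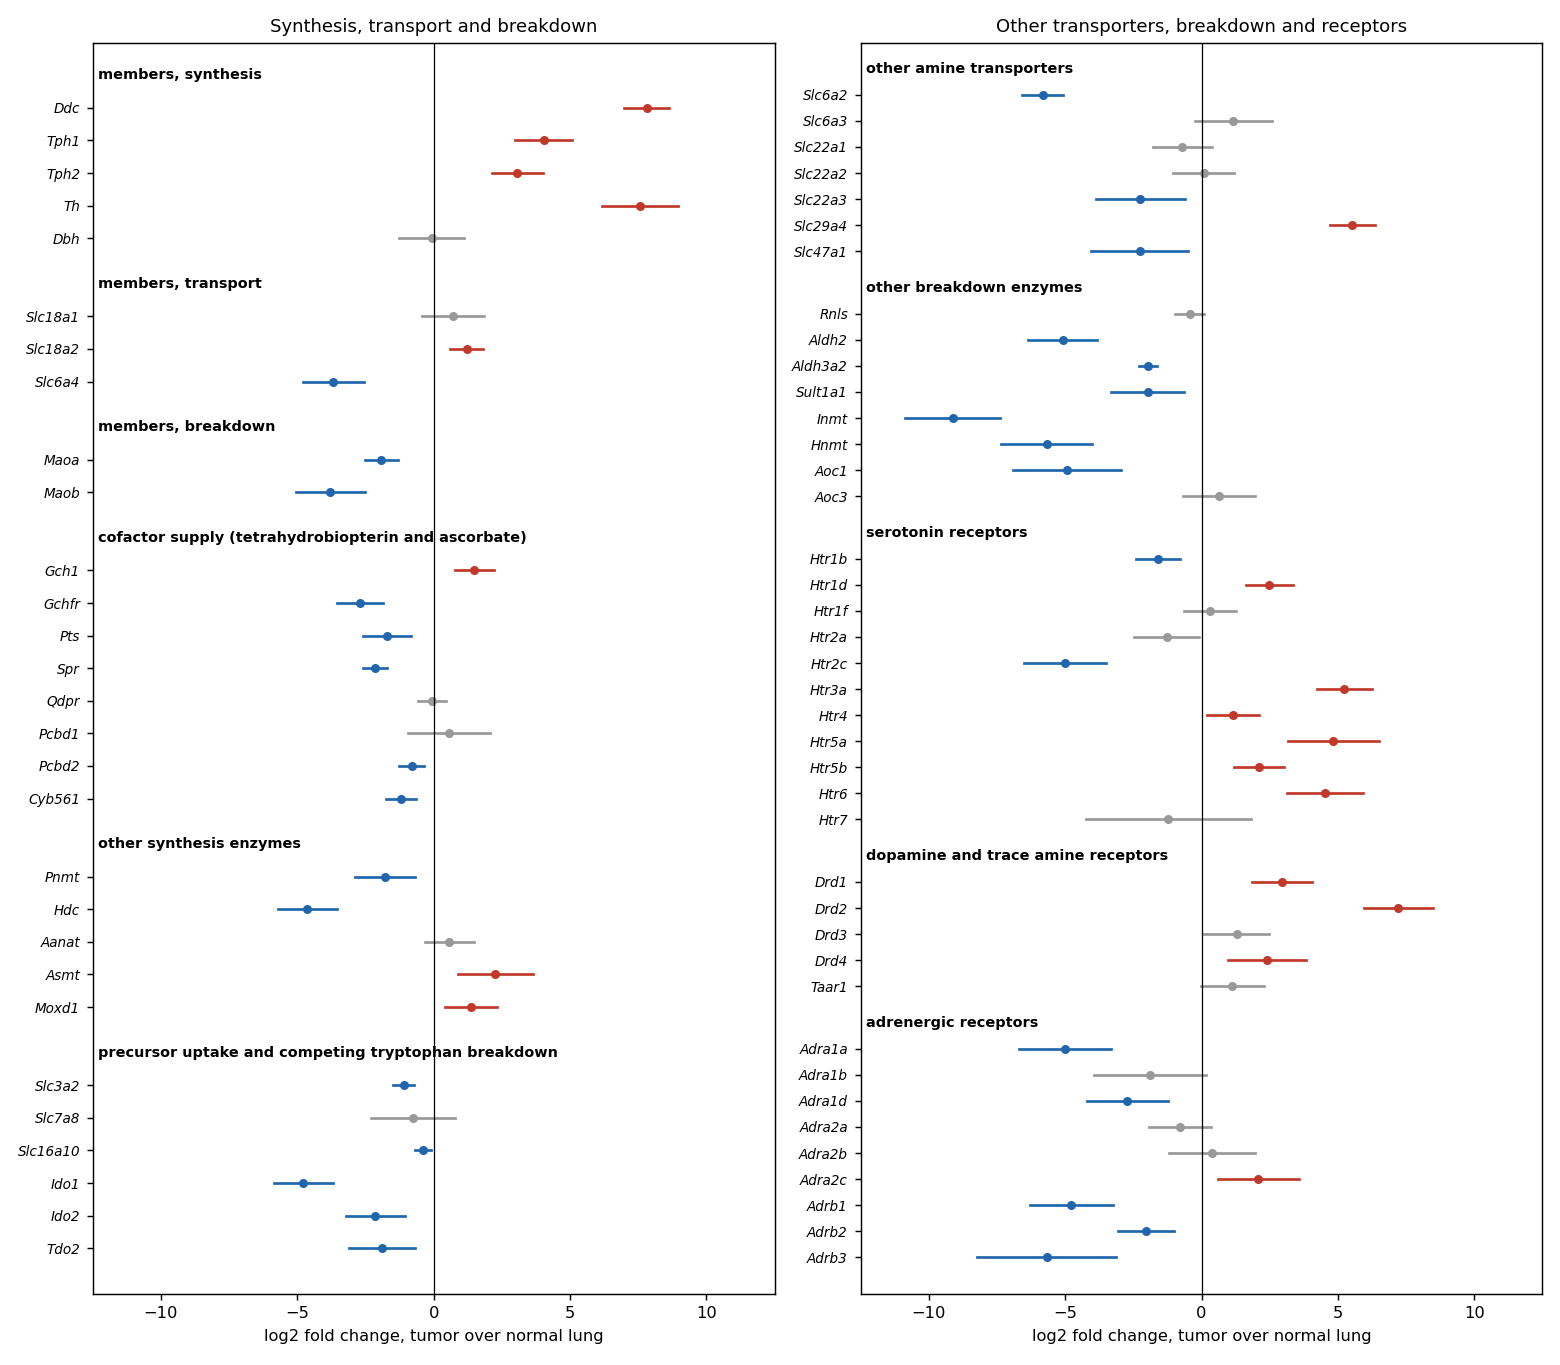
Difference in log2(normalized count + 1) between tumor and normal lung for the 10 genes (headed members) and the 59 other pathway genes tested, grouped by role, with the limma 95% confidence interval as a bar; red marks genes called higher, blue genes called lower and grey genes not called. The differences run from -9.12 for Inmt to 7.80 for Ddc, and the intervals of Dbh and Slc18a1 span 0.

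The genes whose levels followed each of the 10 most closely were read as Pearson's r of log2(normalized count + 1) over the 12 samples, among genes with a mean log2 level of at least 4. These coefficients are descriptions, since both groups are in them and the samples share libraries and depth. Those nearest to Ddc were Zcchc12 (r = 0.996), Ces5a (0.995) and Prox1os (0.994). Those nearest to Th were Bora (0.991), Prim2 (0.989) and Diaph3 (0.988), and those nearest to Tph1 included Med12l (0.987) and Gm11110 (0.972). Those nearest to Slc18a2 were Chd2 (0.975), Rabgap1 and C2cd3 (both 0.968). For Slc6a4 they included Serpinb6a (0.978) and Ip6k3 (0.972), for Maoa Shh (0.980), Scn3b (0.975) and Ppp1r16b (0.972), and for Maob Tgfb1i1 (0.991), Gm44751 (0.989) and Evc2 (0.988). Slc18a1 had no gene as close: its nearest were Rock1 (0.831), Kcnq5 (0.757) and Whrn (0.755).

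The depth behind these values was 11126432 to 17032234 reads assigned to genes per normal lung and 13093843 to 24217633 per tumor. A count of 3 reads, the limit that a count of 0 allows, was worth 3.23 to 4.85 normalized counts in the normal lungs and 1.90 to 3.57 in the tumors. In GENCODE M21, Slc18a1 overlaps Atp6v1b2 on the opposite strand with no shared exon base. The mean of Atp6v1b2 was 2337 in normal lung and 2790 in tumor, far above that of Slc18a1. Slc18a2 shares 111 exon bases with Gm29261 on the opposite strand. The mean of Gm29261 was 0 in normal lung and 2.23 in tumor. Whether counting used the strand is not given in the sources used here.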

How the data were processed

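Gene-level RNA sequencing values of 5 normal lungs and 7 tumors were read from 1 table of 30399 Ensembl genes, of which 29982 were named through a symbol table and 417 were not. The values are a normalized count signal that the authors deposited. The submitters' processing notes name featureCounts, DESeq2 and GRCm39, without versions or roles. The aligner, the annotation and the use of strand are not given in the sources used here. In every column all values (100%) came out within 0.01 read of a whole number after multiplication by 1 size factor per sample, between 0.619 and 1.58, so whole reads were recovered. Tumor 3, whose factor lies close to 1, was kept out of the tests on reads. Size factors make a level depend on all genes of a sample, so a broad shift between tissues would move every value.

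The 10 genes and the gene lists were chosen with earlier results of these data known. Values were tested as log2(value + 1) with limma 3.58.1 (lmFit and eBayes with trend, R 4.3.3) over the 23674 genes with a mean of at least 1, with Benjamini-Hochberg adjustment over all of them. A gene was called at an adjusted p below 0.05 whatever its fold change, and groups were said not to overlap where every tumor lay beyond every normal lung. Log2 ratios of 3 gene pairs were taken from values per kilobase of merged GENCODE M21 exons, with a pseudocount of 1 on the levels. These ratios were tested with two-sided exact permutation tests (numpy 2.4.6). The 95% counting intervals of pooled read ratios came from scipy 1.17.1. The exon models belong to GRCm38 and are not those used for counting. The genes named outside the 10 come from the pathway lists and, for each of the 8 genes among the 10 with a mean log2 level of at least 4 in the tumors, the 3 with the highest Pearson's r.

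On the recovered reads of 11 samples, edgeR 4.0.16 (quasi-likelihood, TMM) called 13219 of 23674 genes (55.8%) and DESeq2 1.42.0 called 13516 of 23077 (58.6%). Further alternatives were a pseudocount of 0.1, no filter or a mean of at least 10, equal column totals, quantile normalization, tumors with the same title number averaged, no trachea-titled tumors, and each sample left out in turn. Of 31 pairs of samples within a group, none was close enough to be a repeated library (the lowest chi-square over genes was 18.4 per degree of freedom). The limma test was run on simulated data before use. Slc7a5, Akr1b3 and Htr2b are not analysed here, and a few further genes of the lists are not reported here.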

Additional observations from a re-analysis of the deposited data

Results flagged for a closer look

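In 20 of the 155 sets of samples examined, 1 sample lay far from the others by Dixon's criterion. The sets were the tested pathway genes, the marker sums and the 3 pair ratios, each in the normal lungs and in the tumors. Sets in which all values were equal were left out. For independent, normally distributed values, chance alone gives about 1 in 20 sets, or 7.75. Some sets hold genes with few or no reads, to which that rate does not apply. Where only 1 library had a read, as for Tph1, Tph2 and Htr1d in normal lung, the criterion flags it whatever its value. The count of 20 against 7.75 therefore does not measure an excess of outlying samples. Of the 20 flagged samples, 8 were normal lungs and 3 were tumor 7. All values here are log2(normalized count + 1).

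Among the 10 genes, Tph1 in normal lung 1 (1.20) and Tph2 in normal lung 5 (1.10) were the 1 library with a read, against 0 in the other normal lungs. Dbh in normal lung 5 (0) was the 1 library without a read, against 1.39 to 1.93. Slc18a1 in normal lung 4 (4.87) lay below the 5.31 to 5.43 of the others. Maoa in tumor 1 (6.12) lay below the 7.39 to 7.96 of the other 6 tumors.

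Among the other pathway genes, tumor 2 stood apart most often. It was low for Pts (6.08), Pcbd1 (4.14), Rnls (6.08) and Adrb1 (2.80), and high for Asmt (6.89) and Htr5b (4.24). Tumor 7 was high for Spr (9.47), Slc47a1 (7.65) and Aoc3 (10.14). Inmt was low in tumor 3 (1.99, against 6.19 to 7.74), and Htr2c was high in tumor 6 (4.36). In normal lung, Slc47a1 was low in normal lung 4 (4.27), Htr1d had its 1 value above 0 in normal lung 3 (1.39), Htr7 was high in normal lung 3 (6.17), and Drd3 was 0 in normal lung 4, against 2.08 to 2.90.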

How the results depend on the processing

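Across the alternatives, 4 to 6 of the 10 genes were called higher (4 with a mean of at least 10, where Tph2 was not tested, and 6 with DESeq2, which added Slc18a1) and 3 were called lower. Leaving out each sample in turn gave 5 and 3 each time. Of the other pathway genes, 11 to 16 were called higher and 22 to 30 lower. Equal column totals moved the median log2 change of all genes from 0.04 to 0.24, edgeR to 0.22 and DESeq2 to 0.15. Dbh, called under no alternative, changed sign with equal totals (0.030), edgeR (0.40) and DESeq2 (0.31), and ran from -0.41 to 0.14 when each sample was left out in turn. The sign of other values that were not called changed as follows. Equal totals gave 0.14 for Qdpr. edgeR gave 0.40 for Slc7a8 and 2.24 for Htr7, and DESeq2 gave 0.30 for Slc7a8 and 2.12 for Htr7. Averaging tumors with the same title number gave 0.046 for Qdpr and -0.20 for the log2 ratio of Tph1 to Tph2. Quantile normalization gave -0.17 for Slc22a2. Leaving out each sample in turn gave -0.17 to 0.14 for Qdpr, -0.19 to 0.35 for Slc22a2 and -0.075 to 0.20 for Tph1 against Tph2. The difference for Maoa against Maob, which was called, kept its sign and ran from 1.39 to 2.17 when each sample was left out. The cause of these changes was not tested. No paired analysis was possible because the labels give the samples of the groups no shared replicate numbers. Depth limits Dbh, Tph1 and Tph2, which rest on few reads in normal lung, and no call could be checked against separate animals.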
